A study of Mus musculus with 11 samples.

Results

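The Notch receptors, their ligands and the repressor genes that Notch switches on were followed in liver RNA of mice with diet-induced metabolic dysfunction–associated steatohepatitis (MASH). The 10 members were the rows of the deposited count table whose gene symbol is *Notch1*, *Notch2*, *Notch3*, *Notch4*, *Jag1*, *Jag2*, *Dll4*, *Hes1*, *Hey1* or *Heyl*, that is 4 receptors, 3 ligands and 3 targets among 46603 genes. All 10 were found. The groups were 7 livers from mice given vehicle and 4 from mice given INT-767, a bile acid derivative acting on both the nuclear receptor FXR and the membrane receptor TGR5. All mice belonged to the AMLN *ob/ob*-MASH model and were males of the strain B6.V-Lep ob/JRj, homozygous for the *ob* allele and so without leptin, 5 to 6 weeks old when the AMLN diet, with high fat, fructose and cholesterol, began. The diet went on during the treatment, which was INT-767 at 10 mg/kg or the carboxymethyl cellulose vehicle by gavage once daily for 8 weeks. Only mice with steatosis and fibrosis in a liver biopsy were entered, and no lean or chow-fed liver is among the 11 samples, so that each value compares treated with untreated MASH. The question was whether transcripts of this pathway differed in level between the treatment groups.

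Notch receptors span the cell membrane and are activated by ligands of the Jagged and Delta-like families on a neighboring cell. Cleavage by ADAM proteases and then by gamma-secretase frees the intracellular part of the receptor, which enters the nucleus, binds the DNA-binding protein RBPJ and switches on genes of the HES and HEY repressor families. In liver the pathway is known for guiding the formation of bile ducts and of vessels, and its activity in hepatocytes and stellate cells has been linked to fibrosis in steatohepatitis.

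Levels are given as CPM, the counts of a gene relative to the library total, after scaling by edgeR's TMM factors, and for comparisons between genes as CPM per kilobase of the longest annotated transcript. Total counts ranged from 7966963 to 15295230 in the vehicle group and from 7381211 to 16022459 in the INT-767 group. The labels of liver tissue were matched by hepatocyte transcripts, since *Alb*, the gene of serum albumin, stood at 42978 ± 4289 CPM with vehicle (mean ± SD, n = 7). In whole liver, fewer cells of a type and less RNA per cell cannot be told apart.

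Some libraries, 2 of the 7 vehicle and 2 of the 4 INT-767, stood apart from the others by transcript length. The log2 CPM of each library, relative to the mean over all libraries, was compared across genes with the length of the longest transcript, and Spearman's rho was -0.18 and -0.23 in vehicle mice 1 and 7 and -0.29 and -0.31 in INT-767 mice 2 and 4. In the other 7 libraries rho lay between 0.089 in INT-767 mouse 3 and 0.30 in vehicle mouse 6. The same 4 libraries had the highest scores on the first principal component, which held 58.7% of the variance over all tested genes. The same comparison with GC content also did not divide evenly over the groups. Its rho was negative in all 4 INT-767 livers, at -0.059, -0.26, -0.16 and -0.24, and of the vehicle livers it was negative in mice 1 and 7, at -0.42 and -0.12, and between 0.018 and 0.44 in the other 5. The trends on transcript length and on GC content therefore each overlapped in part with the treatment. Values with an offset for GC content and length are given beside the members below. The longest transcripts of the 4 receptors have 6591 to 10500 bases and that of *Hes1* has 1468, and the fold change of each member is also given for the 7 libraries with a rho of 0 or more (5 vehicle and 2 INT-767) and for the other 4. This split was chosen after the data were seen.

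The promoters of the ligands *Jag1* and *Dll4* are shown because *Jag1* was the only member called and *Dll4*, a ligand of the same receptors, was not. RefSeq windows from 250 bases before to 50 bases after the transcription start (GRCm38.p6) matched 7 of the 10 members, and *Hes1*, *Hey1* and *Heyl* were not matched. The bases printed are those of the window that lie before the first annotated exon, 5′ to 3′ on the gene's strand, which are chr2:137116645-137116770 on the minus strand for *Jag1* and chr2:119325534-119325783 on the plus strand for *Dll4*. Capitals mark the letters CACGCG, a site bound by HES and HEY repressors, read on either strand (CGCGTG on the other).
Jag1: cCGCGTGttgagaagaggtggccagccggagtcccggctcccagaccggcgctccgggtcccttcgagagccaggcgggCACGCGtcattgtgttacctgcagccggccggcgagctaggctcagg
Dll4: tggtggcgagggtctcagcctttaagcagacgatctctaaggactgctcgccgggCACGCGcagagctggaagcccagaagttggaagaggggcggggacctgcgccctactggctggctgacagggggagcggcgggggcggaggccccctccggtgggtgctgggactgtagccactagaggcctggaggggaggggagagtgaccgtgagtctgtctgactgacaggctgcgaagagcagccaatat
Counted from the RefSeq start, the matches began at -249 and -171 in *Jag1* and at -195 in *Dll4*. Single matches were also found in the windows of *Notch2* (-42) and *Jag2* (19), so that 4 of the 7 windows held CACGCG, as did 9.27% of all 32851 RefSeq promoter windows. The GC box GGGCGG was found in the windows of *Notch1*, *Notch2*, *Notch3*, *Jag2* and *Dll4*, against 35.7% of all windows. The RBPJ core TGGGAA (25.6% of all windows), the E-box CACGTG (7.15%), the nuclear receptor half-site AGGTCA (16.3%) and the inverted repeat of that half-site with a spacer of 1 base (0.00913%), to which FXR binds, were not present in any of the 7 windows. A match describes the letters of the window only.

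Across the pathway *Jag1*, the ligand Jagged 1, fell in the livers of INT-767-treated mice to 0.458 of its vehicle level. It was the only member to pass the test across all 13880 tested genes, where 4.68% of genes were called lower and 5.04% higher (edgeR quasi-likelihood test, Benjamini-Hochberg adjusted p under 0.05). No member was called higher. The log2 fold changes of all 10 members lay below 0, with a median of -0.73, against 50.6% of all tested genes below 0 with a median of -0.01. With an offset for GC content and transcript length 9 of the 10 lay below 0 and the median was -0.43. At an unadjusted p under 0.05, 5 of the 10 members were lower (*Notch1*, *Notch3*, *Jag1*, *Hey1* and *Heyl*), against 15.6% of all tested genes. That count was 3 with the offset (*Jag1*, *Hey1* and *Heyl*, against 14.5% of all tested genes). It was 1 with the replicate number as a block (*Jag1*, against 5.63%) and 0 with both (against 6.45%). The replicate numbers do not pair the mice, and vehicle mice 5, 6 and 7 share theirs with no treated mouse. Fewer differences can pass with the block for that reason, and its counts decide nothing about the members. Leaving out 1 mouse gave counts from 3 to 7. The count was 3 without INT-767 mouse 2 (against 10.1% of all tested genes) or INT-767 mouse 4 (against 13.4%), and 7 without vehicle mouse 1 (against 19.4%). The groups did not overlap for *Jag1* alone of the members, against 3.65% of all tested genes with every INT-767 value below every vehicle value. The members share libraries and are not replicates of the treatment.

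**Figure D1:**
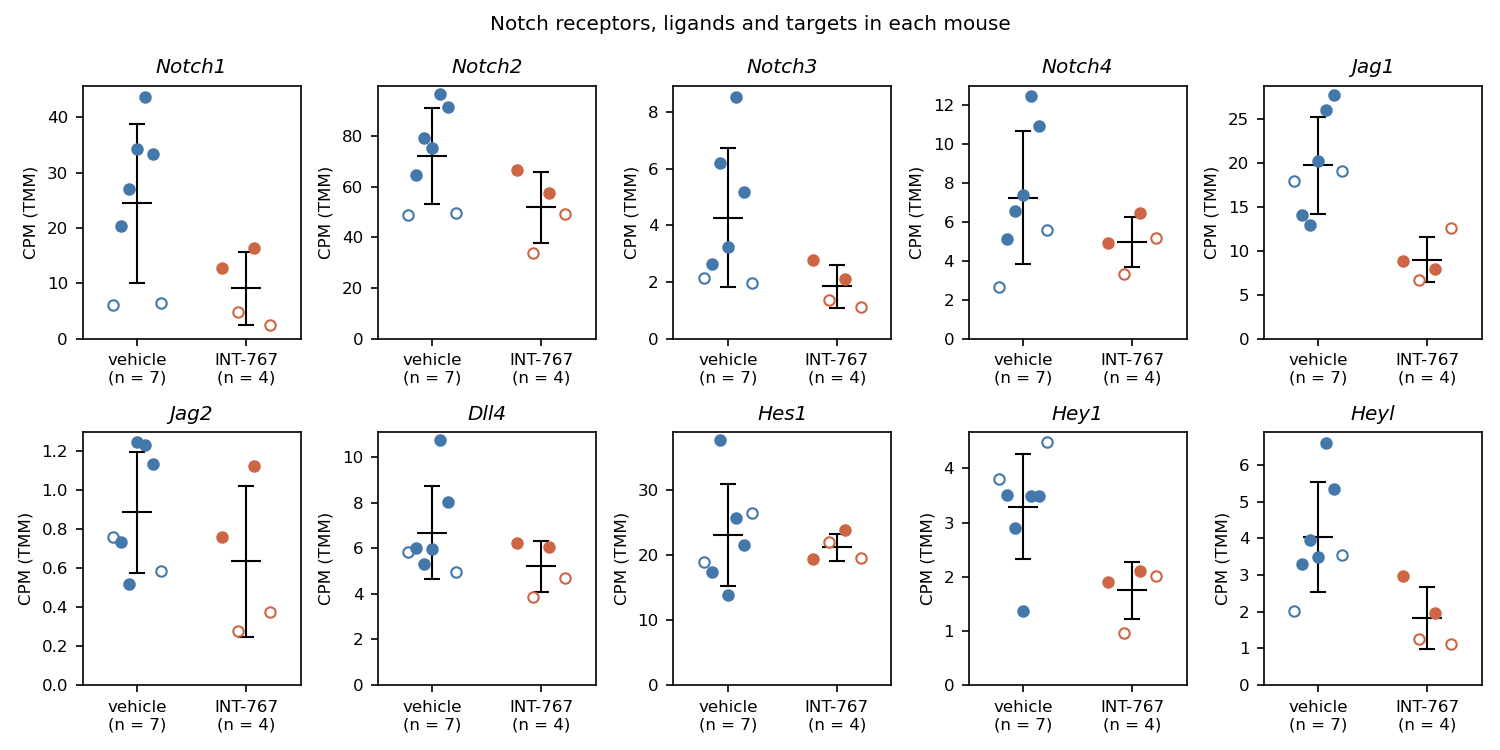
Level of each Notch member (vertical axis, CPM after TMM scaling, linear from 0) in 7 vehicle (blue) and 4 INT-767 (orange) livers. Points are mice, bars are the mean ± SD, and open points are the 4 libraries with a negative trend on transcript length. *Jag1* is the gene whose groups do not overlap, with INT-767 values up to 12.6 and vehicle values from 12.97 CPM.

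Per kilobase, *Hes1* was the most abundant member with vehicle at 15.7 ± 5.33 CPM per kilobase (mean ± SD, n = 7), followed by *Notch2* at 6.88 ± 1.80 and *Jag1* at 3.51 ± 0.99. Below them came *Notch1* (2.58 ± 1.51), *Dll4* (1.78 ± 0.54), *Hey1* (1.36 ± 0.40), *Notch4* (1.10 ± 0.52), *Heyl* (0.89 ± 0.33) and *Notch3* (0.53 ± 0.31), and *Jag2* was the least abundant at 0.17 ± 0.061 CPM per kilobase. *Hes1* stood above *Notch2*, and *Notch2* above *Jag1*, by more than the sum of their SDs, and all further neighbors in this order differed by less than that. In INT-767 livers *Hes1* (14.4 ± 1.45, n = 4) and *Notch2* (4.94 ± 1.33) were again the most abundant and *Jag2* (0.12 ± 0.076) the least, and *Jag1* stood at 1.60 ± 0.46 CPM per kilobase, next to *Dll4* at 1.39 ± 0.30.

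*Notch1* (ENSMUSG00000026923, chromosome 2, 26457903 to 26516663, GRCm38, 34 exons) encodes a receptor of endothelium and other cell types. Its level ranged with vehicle from 6.08 to 43.6 CPM with a median of 27.1, and was 12.8, 4.83, 16.3 and 2.39 CPM in the 4 INT-767 livers. Vehicle mice 1 and 7, at 6.08 and 6.41 CPM, lay among the INT-767 values, and the other 5 vehicle mice lay above all of them. At -1.43 (SE 0.62), the log2 fold change did not pass the test (edgeR, Benjamini-Hochberg adjusted p = 0.132, n = 7 and 4). Among the 7 libraries with a rho of 0 or more on transcript length, 5 vehicle and 2 INT-767, it was -1.13 (SE 0.26) and passed (adjusted p = 0.0211 by the same test). Among the other 4 libraries it was -0.88 (SE 0.40) and did not pass (adjusted p = 0.245). This split was chosen after the data were seen, and its larger part leaves out vehicle mice 1 and 7, so that the pass is not independent evidence. With the offset for GC content and length the log2 fold change was -0.87 (adjusted p = 0.158). Genes on the opposite strand cover 9.76% of the exon bases of *Notch1*, and whether the counting used strand is not given in the sources used here.

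*Notch2* (ENSMUSG00000027878, chromosome 3, 98013527 to 98150361, 34 exons), the receptor needed for bile duct formation, was the most abundant of the 4 receptors. Vehicle livers ranged from 48.7 to 96.7 CPM with a median of 75.1, and the INT-767 livers held 66.7, 33.9, 57.5 and 49.2 CPM. The groups overlapped, since INT-767 mouse 1 lay above 3 vehicle mice. Its log2 fold change of -0.48 (SE 0.24) did not pass (edgeR, Benjamini-Hochberg adjusted p = 0.172), and its sign turned to 0.083 after the offset. It was -0.38 in the libraries with a rho of 0 or more and -0.28 in the other 4.

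*Notch3* (ENSMUSG00000038146, chromosome 17, 32120820 to 32166852, 33 exons), the receptor of pericytes, smooth muscle and activated stellate cells, was a low transcript with 439 counts over all 11 livers. It ranged from 1.98 to 8.56 CPM with vehicle (median 3.24) and measured 2.79, 1.38, 2.11 and 1.12 CPM with INT-767. All 4 treated livers lay below the vehicle median but within or under the lower part of the vehicle range. A log2 fold change of -1.20 was fitted (SE 0.45, edgeR, Benjamini-Hochberg adjusted p = 0.0991), and it was -1.04 in the libraries with a rho of 0 or more and -0.77 in the other 4. Of the alternatives DESeq2 alone passed *Notch3* (adjusted p = 0.0459), whereas limma-voom gave an adjusted p of 0.157 and the offset a log2 fold change of -0.64 (adjusted p = 0.162). Opposite-strand genes cover 6.03% of its exon bases.

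*Notch4* (ENSMUSG00000015468, chromosome 17, 34564268 to 34588503, 31 exons), a receptor found mainly on endothelium, ranged from 2.66 to 12.5 CPM with vehicle with a median of 6.54. The INT-767 livers, at 4.88, 3.31, 6.46 and 5.16 CPM, lay inside that range. Its log2 fold change was -0.55 (SE 0.36, edgeR, Benjamini-Hochberg adjusted p = 0.282). In the libraries with a rho of 0 or more it was -0.60, in the other 4 it was -0.029, and with the offset -0.057.

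*Jag1* (ENSMUSG00000027276, chromosome 2, 137081456 to 137116644, minus strand, 26 exons) encodes the Jagged ligand that, with *Notch2*, is required for bile ducts and that is made by biliary cells and vessel walls, among others. Vehicle livers held between 12.97 and 27.7 CPM with a median of 19.1, and the INT-767 livers 8.82, 6.62, 7.87 and 12.6 CPM. The highest INT-767 liver, mouse 4, lay just below the lowest vehicle liver, mouse 3. Means were 19.7 ± 5.55 CPM with vehicle and 8.97 ± 2.56 with INT-767 (mean ± SD, n = 7 and 4), and the log2 fold change was -1.13 (SE 0.25, edgeR quasi-likelihood test, Benjamini-Hochberg adjusted p = 0.0193). Compared by rank on CPM, the two-sided exact Mann-Whitney p was 0.00606, the smallest that 330 assignments of 4 of 11 mice can give, and adjusted over all tested genes it was 0.0807. 

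Unlike *Notch1*, *Jag1* was near its group's median in vehicle mice 1 and 7, at 18.0 and 19.1 CPM. Its log2 fold change was -1.26 (SE 0.31) in the 7 libraries with a rho of 0 or more (edgeR, Benjamini-Hochberg adjusted p = 0.0263), as large as in all 11. In the 4 libraries with a negative rho it was -0.96 (SE 0.32), with an adjusted p of 0.132. Leaving out INT-767 mouse 2, the lowest value, gave -1.03 (SE 0.27, edgeR, Benjamini-Hochberg adjusted p = 0.0800), the only mouse whose removal ended the call. With the offset for GC content and length it was -0.78 (SE 0.26, adjusted p = 0.0673).

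*Dll4* (ENSMUSG00000027314, chromosome 2, 119325784 to 119335962, 11 exons), the Delta-like ligand of endothelial cells, ranged from 4.95 to 10.7 CPM with vehicle (median 5.98) and measured 6.22, 3.86, 6.04 and 4.71 CPM with INT-767. INT-767 mice 1 and 3 lay above the vehicle median and the groups overlapped. The log2 fold change was -0.36 (SE 0.24, edgeR, Benjamini-Hochberg adjusted p = 0.303). It was -0.23 in the libraries with a rho of 0 or more, -0.34 in the other 4, -0.21 without vehicle mouse 5 and -0.11 with the offset. *Jag2* (ENSMUSG00000002799, chromosome 12, 112907819 to 112929776, 26 exons), the other Jagged ligand, had 99 counts over all 11 livers and 2 to 17 in any of them, so that a difference may be missed at this depth. Its values ran from 0.519 to 1.25 CPM with vehicle (median 0.759) and were 0.761, 0.276, 1.12 and 0.374 CPM with INT-767, for a log2 fold change of -0.49 (SE 0.42, edgeR, Benjamini-Hochberg adjusted p = 0.412). That value was -0.81 without INT-767 mouse 3, -0.28 without INT-767 mouse 4, -0.29 without INT-767 mouse 2, -0.17 with the offset and -0.092 in the libraries with a rho of 0 or more. *Jag2* had too few counts for the test in the other 4 libraries and without vehicle mouse 4, 5 or 6.

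Among the targets, *Hes1* (ENSMUSG00000022528, chromosome 16, 30064384 to 30067796, 4 exons), the basic helix-loop-helix repressor that is the most widely used readout of Notch activity, held nearly the same mean level in both groups. Vehicle livers ranged from 13.8 to 37.6 CPM with a median of 21.5, and the INT-767 livers, at 19.3, 21.9, 23.8 and 19.5 CPM, all lay within that range. The log2 fold change was -0.13 with an SE of 0.24 (edgeR, Benjamini-Hochberg adjusted p = 0.712). Its sign was not fixed, being 0.029 without vehicle mouse 3, the highest liver. In the libraries with a rho of 0 or more it was -0.11, in the other 4 it was -0.18, and with the offset -0.22.

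*Hey1* (ENSMUSG00000040289, chromosome 3, 8663359 to 8667256, 5 exons), a HEY-family repressor of endothelial and other cells, ranged from 1.37 to 4.49 CPM with vehicle (median 3.48) and was 1.90, 0.966, 2.11 and 2.02 CPM with INT-767. All 4 treated livers lay below 6 of the 7 vehicle livers, and vehicle mouse 4, at 1.37 CPM, lay among them. For *Hey1* the log2 fold change was -0.90 (SE 0.31, edgeR, Benjamini-Hochberg adjusted p = 0.0774). Without vehicle mouse 4 it was -1.05 (SE 0.25) and passed, with an adjusted p of 0.0383 by the same test. Leaving out INT-767 mouse 2 moved it the other way, to -0.74 (adjusted p = 0.227), and limma-voom with sample weights gave -0.65 (adjusted p = 0.261). In the libraries with a rho of 0 or more it was -0.58 (adjusted p = 0.310), in the other 4 it was -1.44 (adjusted p = 0.116), and with the offset -0.84 (adjusted p = 0.0849).

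*Heyl* (ENSMUSG00000032744, chromosome 4, 123233556 to 123249875, 5 exons), a HEY-family repressor of smooth muscle and pericytes that is induced by *Notch3*, ranged from 2.03 to 6.60 CPM with vehicle (median 3.55). The INT-767 livers held 2.98, 1.24, 1.97 and 1.12 CPM, and INT-767 mouse 1 was the only treated liver above a vehicle liver, vehicle mouse 1. The log2 fold change was -1.12 (SE 0.36, edgeR, Benjamini-Hochberg adjusted p = 0.0636), close in size to that of *Jag1* with a wider error. It passed without vehicle mouse 1 (-1.23, adjusted p = 0.0268 by the same test) and without INT-767 mouse 1 (-1.51, adjusted p = 0.0329). Its adjusted p was 0.205 when INT-767 mouse 2 was left out and 0.159 (-0.93) when INT-767 mouse 4 was, and without vehicle mouse 5 or 6 it was -0.97 and -1.05 (adjusted p = 0.118 and 0.121). *Heyl* was at -0.83 in the libraries with a rho of 0 or more (adjusted p = 0.123) and at -1.33 in the other 4 (adjusted p = 0.160), and with the offset at -0.84 (adjusted p = 0.0503).

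Differences between members of the same role were tested within each liver, since a ratio of counts in 1 library does not depend on its scaling. A ratio keeps any trend on transcript length or GC content, in which paired genes can differ (1468 bases in *Hes1* and 4537 in *Heyl*). No ratio was run with the offset. The log2 ratio of *Jag1* to *Dll4* was 1.55 ± 0.29 with vehicle and 0.76 ± 0.46 with INT-767 (mean ± SD, n = 7 and 4), a difference of -0.79 (exact two-sided permutation test, p = 0.0242). The ratio of *Hes1* to *Heyl* differed by 1.08 on the log2 scale (exact permutation p = 0.0303), that of *Hes1* to *Hey1* by 0.81 (exact permutation p = 0.0485) and that of *Notch2* to *Notch3* by 0.60 (exact permutation p = 0.0424). After Benjamini-Hochberg adjustment over the 12 pairs of receptors, ligands and targets, each of these 4 had an adjusted p of 0.145 (exact permutation test, n = 7 and 4), and no pair passed. The smallest exact permutation p is 0.00606, which for a single pair of the 12 becomes 0.0727 after adjustment, so that 1 differing pair alone could not have passed.

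Of 61 other genes of the pathway, from ligand processing to nuclear cofactors, 50 were tested, 1 was called lower and 2 were called higher, against 4.68% and 5.04% of all tested genes. Their median log2 fold change was -0.23, and 32 of the 50 lay below 0. *Numbl*, an adaptor protein related to the Notch inhibitor NUMB, ranged from 2.15 to 6.53 CPM with vehicle (median 4.66) and was 2.16, 1.52, 2.81 and 1.94 CPM with INT-767. It fell, with a log2 fold change of -1.14 (SE 0.30, edgeR, Benjamini-Hochberg adjusted p = 0.0329), and the groups overlapped only at vehicle mouse 1, the lowest vehicle liver. The call of *Numbl* ended with the offset for GC content and length, at -0.64 (SE 0.22, adjusted p = 0.0699 by the same test), in the 4 libraries with a negative rho (-1.05, adjusted p = 0.245), and when vehicle mouse 3, 4, 5 or 6 or INT-767 mouse 2 or 4 was left out (adjusted p of 0.0564 to 0.128).

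*Psen2*, a catalytic subunit of the gamma-secretase that cuts Notch receptors, rose. Its level was between 83.9 and 179.6 CPM with vehicle (median 108.5) and 174.0, 336, 156 and 368 CPM with INT-767, with the 2 highest values in INT-767 mice 2 and 4. The log2 fold change was 1.10 (SE 0.27, edgeR, Benjamini-Hochberg adjusted p = 0.0282), and 0.67 (SE 0.17, adjusted p = 0.0288) in the 7 libraries with a rho of 0 or more. In the other 4 libraries *Psen2* was at 1.07 and did not pass (adjusted p = 0.0573). Its call also ended when vehicle mouse 4, 5 or 6 or INT-767 mouse 2 or 4 was left out (adjusted p of 0.0554 to 0.120).

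*Snw1*, a nuclear cofactor of RBPJ that also takes part in splicing, passed narrowly and in only 8 of 25 alternatives. It held 18.2 to 34.8 CPM with vehicle (median 21.4) and 27.7, 45.8, 37.4 and 54.0 CPM with INT-767, with a log2 fold change of 0.77 (SE 0.22, edgeR, Benjamini-Hochberg adjusted p = 0.0464). Limma-voom gave an adjusted p of 0.0514, upper-quartile factors 0.0677, library size only 0.0978 and no filter on low counts 0.0550, and leaving out single mice gave values above the threshold for vehicle mice 2 to 6 and INT-767 mice 2, 3 and 4 (0.0574 to 0.158).

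*Ccnd1* (cyclin D1), *Itch* (a ubiquitin ligase that turns over Notch) and *Dtx3*, of the Deltex family, did not pass over all 11 livers, with log2 fold changes of 0.28, 0.79 and -0.66 (edgeR, Benjamini-Hochberg adjusted p = 0.440, 0.0703 and 0.0906). They passed in the 7 libraries with a rho of 0 or more, a subset chosen after the data were seen, where *Ccnd1* was at 0.83. *Psenen*, *Ncstn*, *Aph1a*, *Aph1b* and *Aph1c*, which encode further gamma-secretase subunits, did not pass. *Rbpj* and the 3 Mastermind coactivators *Maml1*, *Maml2* and *Maml3* had log2 fold changes below 0, none of which passed. *Sox9*, a biliary transcription factor regulated by Notch, had a log2 fold change of -0.61 (SE 0.19, edgeR, Benjamini-Hochberg adjusted p = 0.0643), and *Spp1*, osteopontin, one of -0.44 (adjusted p = 0.423 by the same test). Of the HES and HEY family outside the members, *Hes6* was tested, with a log2 fold change of 0.38 (SE 0.16, edgeR, Benjamini-Hochberg adjusted p = 0.130, unadjusted p = 0.0370), and *Hes2*, *Hes3*, *Hes5*, *Hes7*, *Hey2* and *Helt* had too few counts for the test. *Nrarp*, a direct target and inhibitor of Notch, also had too few, with 65 counts over all livers.

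**Figure D2:**
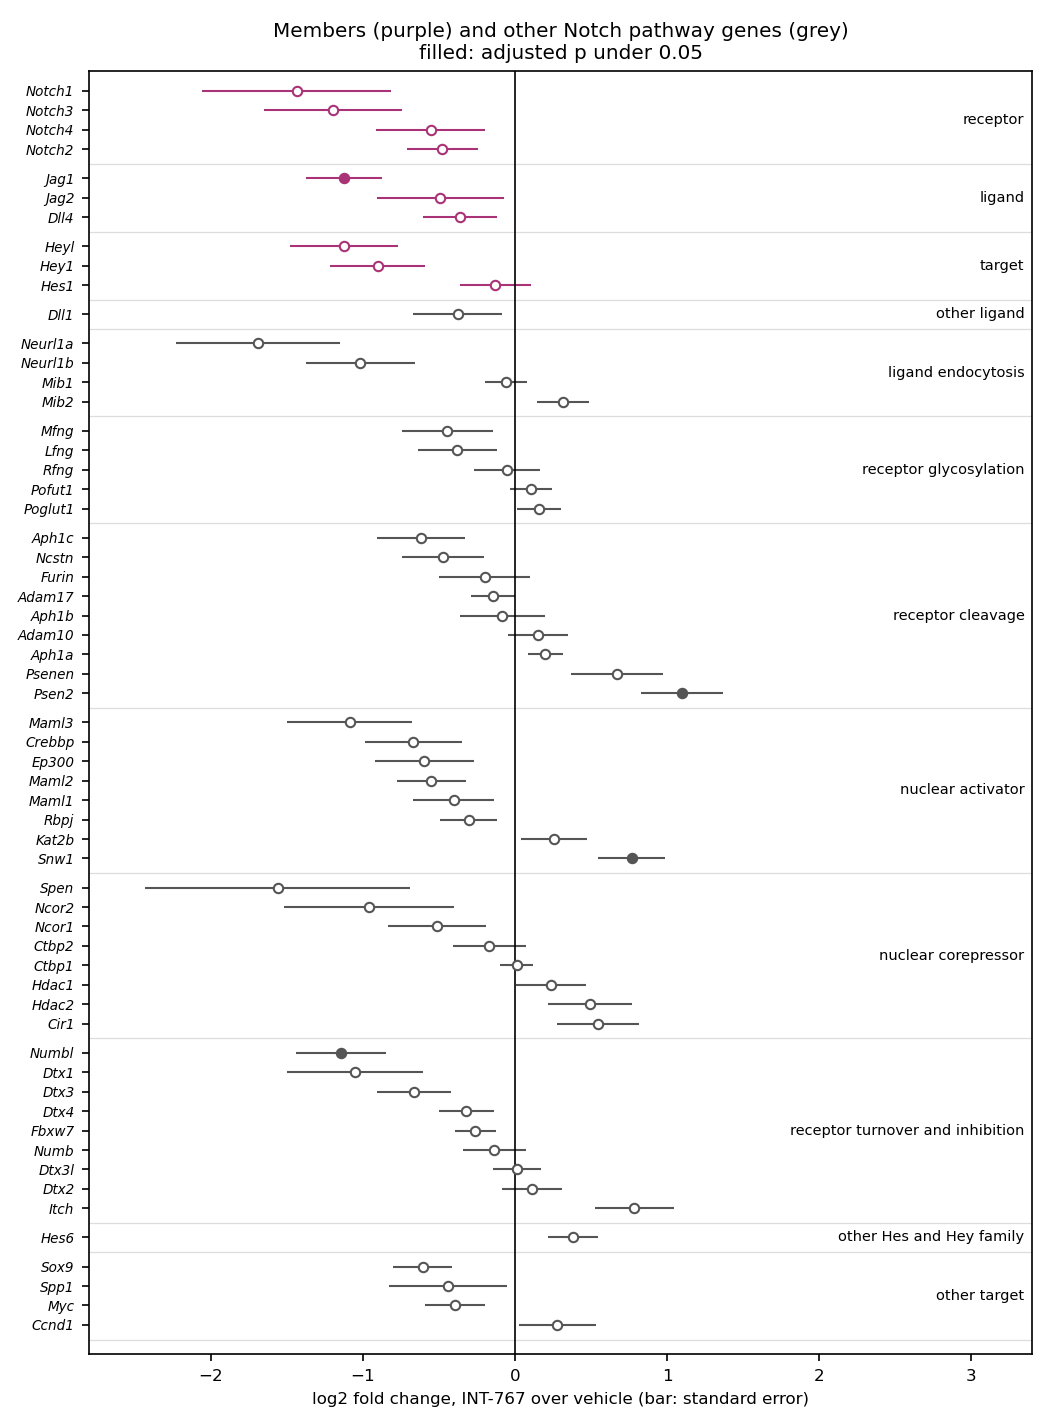
Log2 fold change of INT-767 over vehicle (horizontal axis) with its standard error for the 10 members (purple) and the other tested Notch pathway genes reported here (grey), grouped by role. Filled points passed an adjusted p of 0.05, which among the members is *Jag1*, and among the others *Numbl* to the left of 0 and *Snw1* and *Psen2* to the right.

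Markers of cell types that carry Notch receptors and ligands were read in the same livers. For scale, 4.68% of all tested genes were called lower and 5.04% higher. Of 15 endothelial markers 1 was called lower (*Vwf*), the median log2 fold change was -0.60, and the summed level was 253 to 624 CPM with vehicle (median 465.8) and 382, 227, 311 and 230 CPM with INT-767, with *Plvap* as the most abundant per kilobase. Of 10 cholangiocyte markers 2 were called lower (*Muc1* and *Cldn4*), the median was -0.72, and the sum was 88.3 to 173 CPM with vehicle (median 114) and 57.8, 58.9, 103 and 108 CPM with INT-767, led by *Tspan8*. Both types make Notch ligands, and their part in the value of *Jag1* was not tested.

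Of 14 markers of stellate cells and myofibroblasts 3 were called lower (*Col1a1*, *Col1a2* and *Pdgfrb*), with a median log2 fold change of -0.71 and sums of 1028 to 2083 CPM with vehicle (median 1297) and 768, 814, 929 and 1467 CPM with INT-767, led by *Dcn*. *Col1a1* fell from 157.3 ± 121.5 to 20.1 ± 11.1 CPM (mean ± SD, n = 7 and 4). Of 5 tested markers of smooth muscle and pericytes, cells in which *Notch3* and *Heyl* are known to act, none was called and the median was -0.04, with sums of 107 to 184 CPM with vehicle (median 140) and 154, 120, 113 and 178 CPM with INT-767. The most abundant of them per kilobase was *Rgs5*. The part of these cells in the values of *Notch3* and *Heyl* was not tested.

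Of 11 macrophage markers 3 were called lower (*Csf1r*, *Cd68* and *Cd9*) with a median of -0.76, and their sum was 796 to 1101 CPM with vehicle (median 947) and 572, 543, 509 and 1172 CPM with INT-767, led by *Lyz2*. No lymphocyte, neutrophil or mesothelial marker was called. Hepatocyte markers had a median log2 fold change of 0.57, none of 7 was called, and their sum was 63577 to 84305 CPM with vehicle (median 68972) and 105556, 118745, 98271 and 81877 CPM with INT-767, led by *Alb*. No marker on these lists had 0 counts in all livers, and the part of the macrophage and hepatocyte shares in the members' values was not tested.

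Within groups, the members did not vary together as a whole. After subtraction of each group's mean, the log2 CPM of the 4 receptors, *Dll4* and *Heyl* had Pearson correlations of 0.67 to 0.85 with each other over the 11 livers, as a description of points that share libraries, depth and the trend on transcript length. *Jag1* had correlations of 0.029 with *Notch1* and 0.42 with *Notch2*, and 0.58 with *Dll4*. *Hey1* had -0.25 with *Notch1* and 0.37 with *Hes1*. In the libraries ordered by their trend on transcript length, *Notch1* and *Notch2* were lowest at the end that holds INT-767 mice 4 and 2 and vehicle mice 7 and 1, whereas *Hey1* was highest in vehicle mouse 7, at 4.49 CPM.

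**Figure D3:**
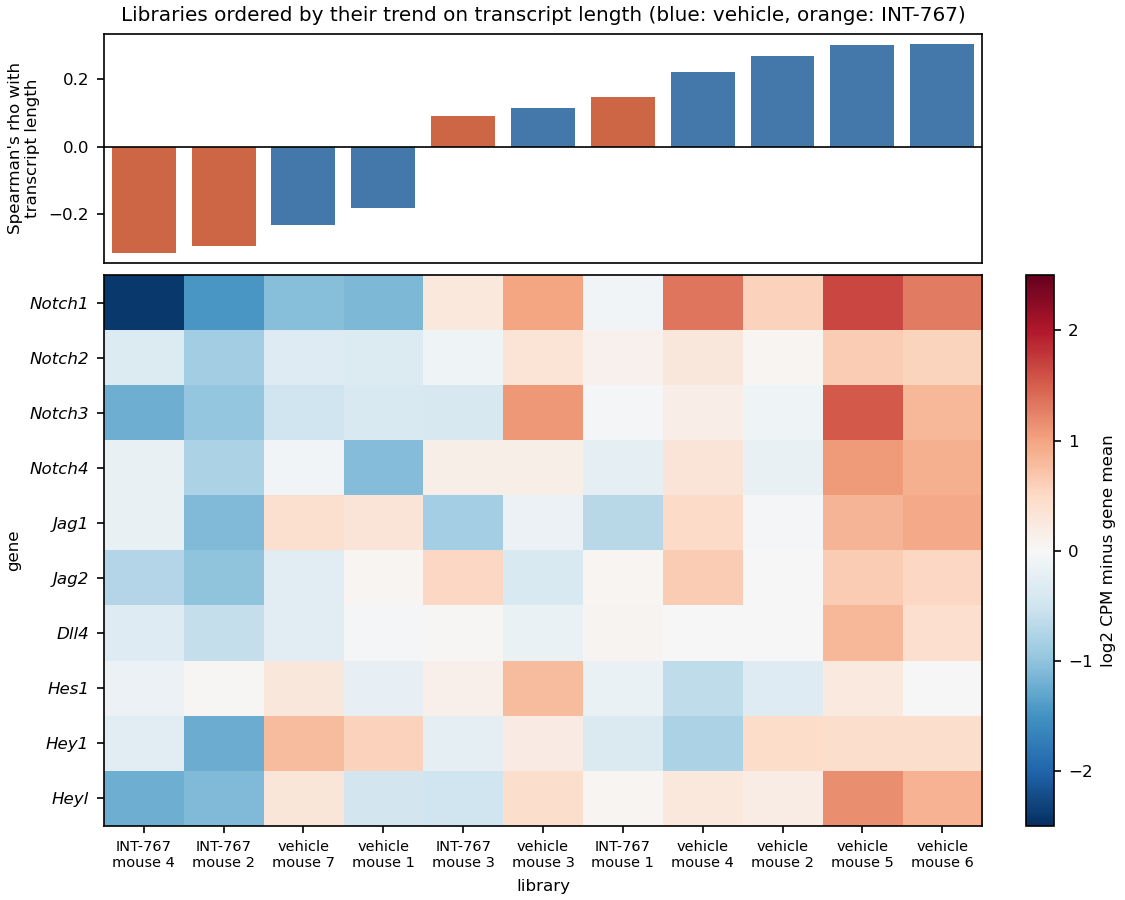
Libraries ordered from left to right by Spearman's rho of their relative expression with transcript length (upper bars, blue vehicle and orange INT-767) and, below, log2 CPM of each member minus its mean over the 11 libraries (red above, blue below the mean). *Notch1* follows the order of the libraries most visibly, and *Jag1* is above its mean in vehicle mice 7 and 1 and below it in all 4 INT-767 mice.

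The genes most like each member in this within-group variation were listed, up to 3 for each. For *Jag1* they were *B130024G19Rik*, *Lrmp* and *Fancg* (r = 0.93, 0.92 and 0.92 over 11 livers). *Notch2* varied most like *Col5a1* and *Aebp1* (0.99 each), *Notch1* like *1700021K19Rik*, *Rad54l2* and *Adcy6* (0.99 each), *Notch3* like *Lrrc8c*, *Idua* and *Mlxip* (0.96, 0.95 and 0.95), and *Notch4* like *Cacnb1*, *Tmem164* and *Tnfrsf18* (0.97, 0.96 and 0.96). For *Dll4* the genes were *Sfi1*, *Sulf1* and *Nckap1l* (0.94, 0.93 and 0.92), and for *Jag2* *Gm26742*, *Nbea* and *Tbx20* (0.99, 0.96 and 0.95). The targets varied most like *Kcne4*, *Ctbp1* and *Ppme1* for *Hes1* (0.91, 0.90 and 0.85), *Cd200r4*, *Entpd1* and *Endou* for *Hey1* (0.98, 0.90 and 0.86), and *Plekho2*, *Myo1f* and *Nfkb1* for *Heyl* (0.97, 0.97 and 0.96). These are the highest of 13880 correlations over 11 points and carry no test.

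**Figure D4:**
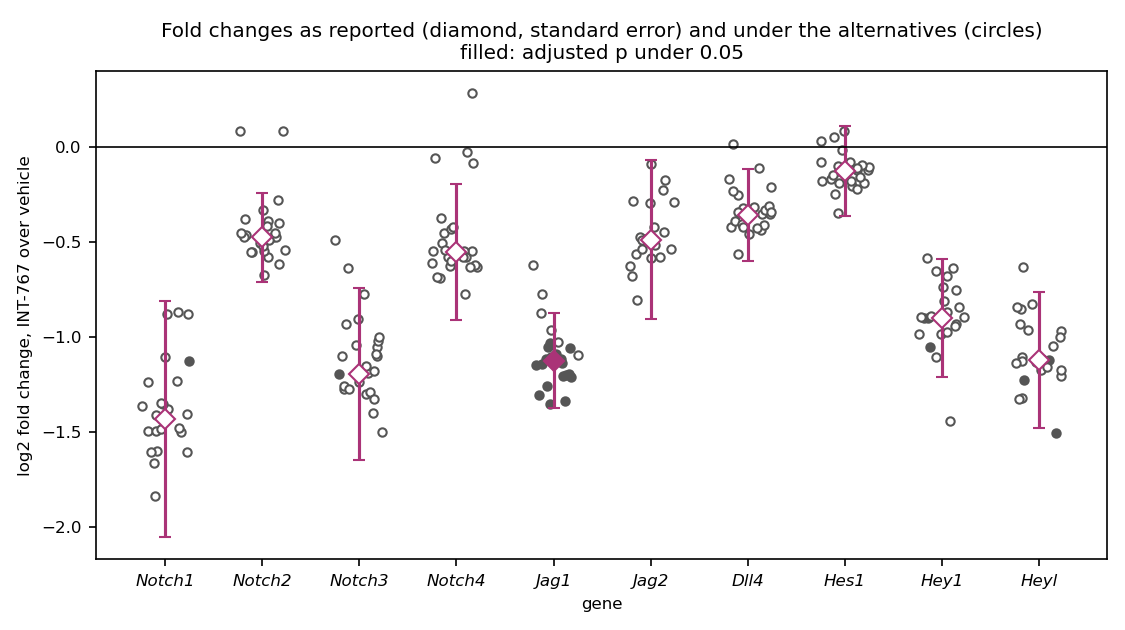
Log2 fold change of INT-767 over vehicle (vertical axis) for each member as reported (diamond, with its standard error) and under up to 25 alternative settings (circles), with filled symbols where the adjusted p was under 0.05. *Jag1* lies below 0 under all 25 and is filled under 19 of them, whereas the circles of *Hes1* lie on both sides of 0.

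Over up to 25 alternative settings, *Jag1* stayed below 0 in all, from -1.35 to -0.62, and passed in 19. *Jag1* did not pass with the offset, the replicate block or both, nor by the exact Mann-Whitney test. It also did not pass in the libraries with a negative rho or without INT-767 mouse 2. The settings reuse the same mice and are not independent of each other. *Heyl* passed in 4, *Hey1* in 2, and *Notch1* and *Notch3* in 1 each. *Notch2*, *Notch4*, *Jag2*, *Dll4* and *Hes1* passed in none of those that gave them a value.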

How the data were processed

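Poly A-enriched RNA of 11 mouse livers was sequenced by the authors as stranded mRNA libraries on the NextSeq 500 for 75 cycles. Reads were aligned with STAR, as version 2.5.2a to GRCm38 with Ensembl release 84 in the supplementary methods and as version 2.4.0 in the submitters' processing notes. The deposited table holds raw counts of reads per gene, with no normalization, for 46603 genes in 11 mice. How the reads were counted, with or without strand, and any batch are not given in the sources used. The mice were housed singly after the biopsy. Litters are not given, so that p-values measure the spread between these samples.

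Groups came from the sample titles. Coordinates, transcript length and GC content were taken from GENCODE M21 (GRCm38) by gene identifier. Counts were analyzed in R 4.3.3 with edgeR 4.0.16, using TMM factors (0.844 to 1.135), filterByExpr (minimum count 10, minimum total 15) and the robust quasi-likelihood fit and test, with no covariate beside treatment. Of 27306 genes with a count, 13880 were tested, and p-values were Benjamini-Hochberg adjusted over all of them at a threshold of 0.05. Within-mouse log2 ratios (counts plus 0.5) of the 12 same-role pairs were compared by exact permutation. Copied libraries were not found, with a median chi-square per gene of 1.10 for the closest pair. Fold changes of genes with few counts are imprecise, and counting intervals were not used since reads carry no molecular identifiers.

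The members and gene lists were chosen with earlier results of these data known. Named in the text were all members, called genes of the pathway list, the 3 genes most like each member, and of each marker list its most abundant gene per kilobase and called genes. *Sox9*, *Spp1*, *Rbpj*, *Nrarp*, *Ccnd1*, *Itch*, *Dtx3* and the other pathway genes named beside them were chosen after their values were seen. *Tf* of the hepatocyte list was not matched, and some genes chosen by these rules are not reported here. Alternatives were RLE, upper-quartile and library size scaling, no filter, at least 10 counts in every mouse, DESeq2 1.42.0, limma-voom (limma 3.58.1) without and with sample weights, an exact Mann-Whitney test, a block for the mouse number, an offset for GC content and length (lowess, span 0.3, 13835 genes), both together, and leaving out each mouse. The fits on libraries split by their trend on transcript length were chosen after seeing the data. All tools were tested on simulated data. Figures were drawn with matplotlib 3.10.9.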

Additional observations from a re-analysis of the deposited data

How the results depend on the processing

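Of the alternatives, those below moved a count of called genes by more than 1.5 times or turned a sign. Members called lower, 1 as reported, were 4 by DESeq2 (*Jag1*, *Notch3*, *Hey1* and *Heyl*), 2 by limma-voom with sample weights (*Jag1* and *Heyl*), 2 in the libraries with a rho on length of 0 or more, and 0 in those under 0, by the exact Mann-Whitney test with Benjamini-Hochberg adjustment, and with the offset for GC content and length. Lower calls over all tested genes, 649 as reported, were 1368 by DESeq2, 1219 with sample weights and 879 with a rho of 0 or more. They were 94 under 0, 0 by the Mann-Whitney test and 811 with the offset. Leaving out 1 mouse gave 0 to 2 members, with 0 without INT-767 mouse 2 (110 of all tested genes). It gave 2 without vehicle mouse 1 (1370), vehicle mouse 4 (392) or INT-767 mouse 1 (732). No member was called higher under any alternative run.

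Other pathway genes called lower, 1 as reported, were 3 with library size only, 2 with upper-quartile factors, 5 by DESeq2, 3 with sample weights, 0 by the Mann-Whitney test, 0 with the offset, 2 with a rho of 0 or more, 0 under 0, and 0 to 3 without 1 mouse (0 without vehicle mouse 3, 4 or 5 or INT-767 mouse 2, and 3 without vehicle mouse 1 or INT-767 mouse 3). Those called higher, 2 as reported, were 1 with library size only, upper-quartile factors, no filter, at least 10 counts in every mouse or limma-voom, 0 by the Mann-Whitney test, 4 with a rho of 0 or more, 0 under 0, and 0 to 3 without 1 mouse (0 without vehicle mouse 4, 5 or 6 or INT-767 mouse 2 or 4). Calls over all tested genes moved too, and lower calls also rose with library size only, by DESeq2 and with sample weights (counts below). The moves of the pathway counts were not tested against that background. *Psen2* passed in 16 of 25 alternatives, *Numbl* in 14 and *Snw1* in 8, each with its sign kept.

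Over all tested genes, 649 were called lower and 700 higher. Lower and higher calls were 1026 and 332 with library size only, which moved the median of all genes from -0.01 to -0.22, 1368 and 1443 by DESeq2, 1219 and 1658 with sample weights, 0 and 0 by the Mann-Whitney test, whose smallest p of 0.00606 was 0.0807 after adjustment so that no gene could pass (2159 and 2414 at an unadjusted p under 0.05 by edgeR), and 94 and 130 in the libraries under 0. The offset gave 1073 higher calls. Without 1 mouse, lower calls ran from 110 (without INT-767 mouse 2) to 1370 (without vehicle mouse 1) and higher calls from 164 to 1906 for the same mice. With library size only all 10 members lay below 0, from -1.61 (*Notch1*) to -0.35 (*Hes1*), before allowing for that shift.

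The replicate numbers do not pair the mice: same-numbered deviations correlated at -0.69, 0.22, 0.15 and -0.48. With the replicate block no gene was called in either direction, with or without the offset (0 members and 0 other pathway genes), and *Jag1* was at -0.88 and -0.62. Vehicle mice 5, 6 and 7 have no treated mouse of the same number, so that fewer differences can pass with the block. With offset and block together *Notch2* was at 0.084, *Notch4* at 0.28 and *Dll4* at 0.013. The offset alone put *Notch2* at 0.083. *Hes1* turned to 0.082 with sample weights, 0.053 with the block and 0.029 without vehicle mouse 3, its range without 1 mouse being -0.25 to 0.029. No ratio of 2 members passed under any alternative, which the design largely fixes: the smallest exact permutation p is 0.125 with the block, 0.0167 without 1 INT-767 mouse and 0.00952 without 1 vehicle mouse, or 0.2 and 0.114 for 1 pair adjusted over 12. The members' median log2 fold change, -0.73 as reported, was -0.43 with the offset (9 of 10 below 0), -0.36 with offset and block (7 of 10) and -0.56 with the block (9 of 10). The cause of these changes was not tested. With 4 treated livers and counts of 2 to 17 in *Jag2* and 7 to 77 in *Hey1*, a difference in the low members may be missed.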
